A study of Mus musculus with 35 samples.

Results

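The 9 genes of the transforming growth factor beta (TGF-beta) pathway described here were measured by RNA-seq of mouse brain after closed head injury. They comprise 3 ligands (Tgfb1, Tgfb2, Tgfb3), a ligand subunit (Inhba), 2 receptors (Tgfbr1, Tgfbr2), an inhibitor that is itself a target (Smad7) and 2 further targets (Tgfbi, Fn1). They were taken by name from a table of 21203 protein-coding genes, in which all 9 names were found, and all 9 passed the filter on low counts that 17131 genes passed. All mice were male C57BL/6NCrl animals, 8 to 9 weeks old when procedures began. The Sham group (n = 5, with 2 mice collected at week 1 and 3 at week 3) had the surgery without the impact and no treatment. The other groups were injured mice given PBS, naive mesenchymal stem cells (MSCs) or MSCs transfected with synthetic interleukin-4 mRNA (IL-4 MSCs). These were injected into the left hippocampus on day 5, and tissue was collected 2 days later (1 week post injury, 1 wpi) or 16 days later (3 wpi), with n = 5 per group except PBS at 3 wpi, where n = 4. The injected MSCs were primary C57BL/6N mouse cells, so their transcripts cannot be told apart from those of the host.

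TGF-beta ligands are secreted as latent complexes, held in the extracellular matrix or on cell surfaces until they are activated. An active ligand brings together a type II receptor (Tgfbr2) and a type I receptor (Tgfbr1), which phosphorylates SMAD transcription factors, and Smad7 is induced by this signal and limits it. In injured brain the pathway is known for its roles in glial and macrophage responses and in the deposition of matrix.

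The libraries held between 29838423 and 41554322 estimated counts, and 3 counts, taken as the lowest detectable level, corresponded to at most 0.101 CPM (counts scaled to library size with TMM factors). All 9 genes lay far above that level in every library. The labels name the tissue as left cortex, whereas the study's methods describe the region around the injection site. The summed level of 6 cortex markers lay between 1158 and 1577 CPM, that of 6 hippocampus markers between 265 and 484 CPM and that of 13 striatum markers between 446 and 3621 CPM, and none of these markers was at or under 3 counts throughout a group. Comparisons used edgeR's quasi-likelihood test in 1 fit of all 34 libraries, and a gene was called where its Benjamini-Hochberg adjusted p over the 17131 genes was under 0.05. Each mouse gave 1 library. In tissue, more cells of a type and more RNA per cell cannot be told apart.

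Per transcript length, in TPM, Fn1 had the highest level of the 9 genes in sham mice, 21.9 ± 4.94 TPM, followed by Smad7 with 19.5 ± 3.32 TPM and Tgfbr1 with 17.7 ± 0.403 TPM (SD, n = 5 each). These levels overlapped between the mice. Tgfb2 (10.8 ± 1.87 TPM), Tgfbr2 (10.5 ± 0.932 TPM) and Tgfb3 (8.99 ± 0.411 TPM) came next, and Tgfb2 overlapped with both of the others, whereas the highest Tgfb3 value, 9.35 TPM, lay below the lowest of Tgfbr2, 9.74 TPM. Inhba (5.9 ± 2.26 TPM), Tgfb1 (5.75 ± 0.746 TPM) and Tgfbi (4.13 ± 0.843 TPM) had the lowest means, and the Inhba values, from 3.55 to 9 TPM, overlapped with those of the other 2 and of Tgfb3. In IL-4 MSC mice at 1 wpi the order differed. Fn1 reached 95.9 ± 17 TPM and Tgfbi 54.8 ± 7.81 TPM, while Tgfbr1, Tgfbr2, Tgfb1 and Smad7 lay at 23.5 ± 1.97, 21.5 ± 1.9, 21.3 ± 3.5 and 19.1 ± 0.75 TPM. Of the ligands, Tgfb2 was at 10.2 ± 0.559 TPM and Tgfb3 at 10.4 ± 0.544 TPM in that group, with Inhba the lowest of the 9 genes at 6.24 ± 0.643 TPM.

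**Figure D1:**
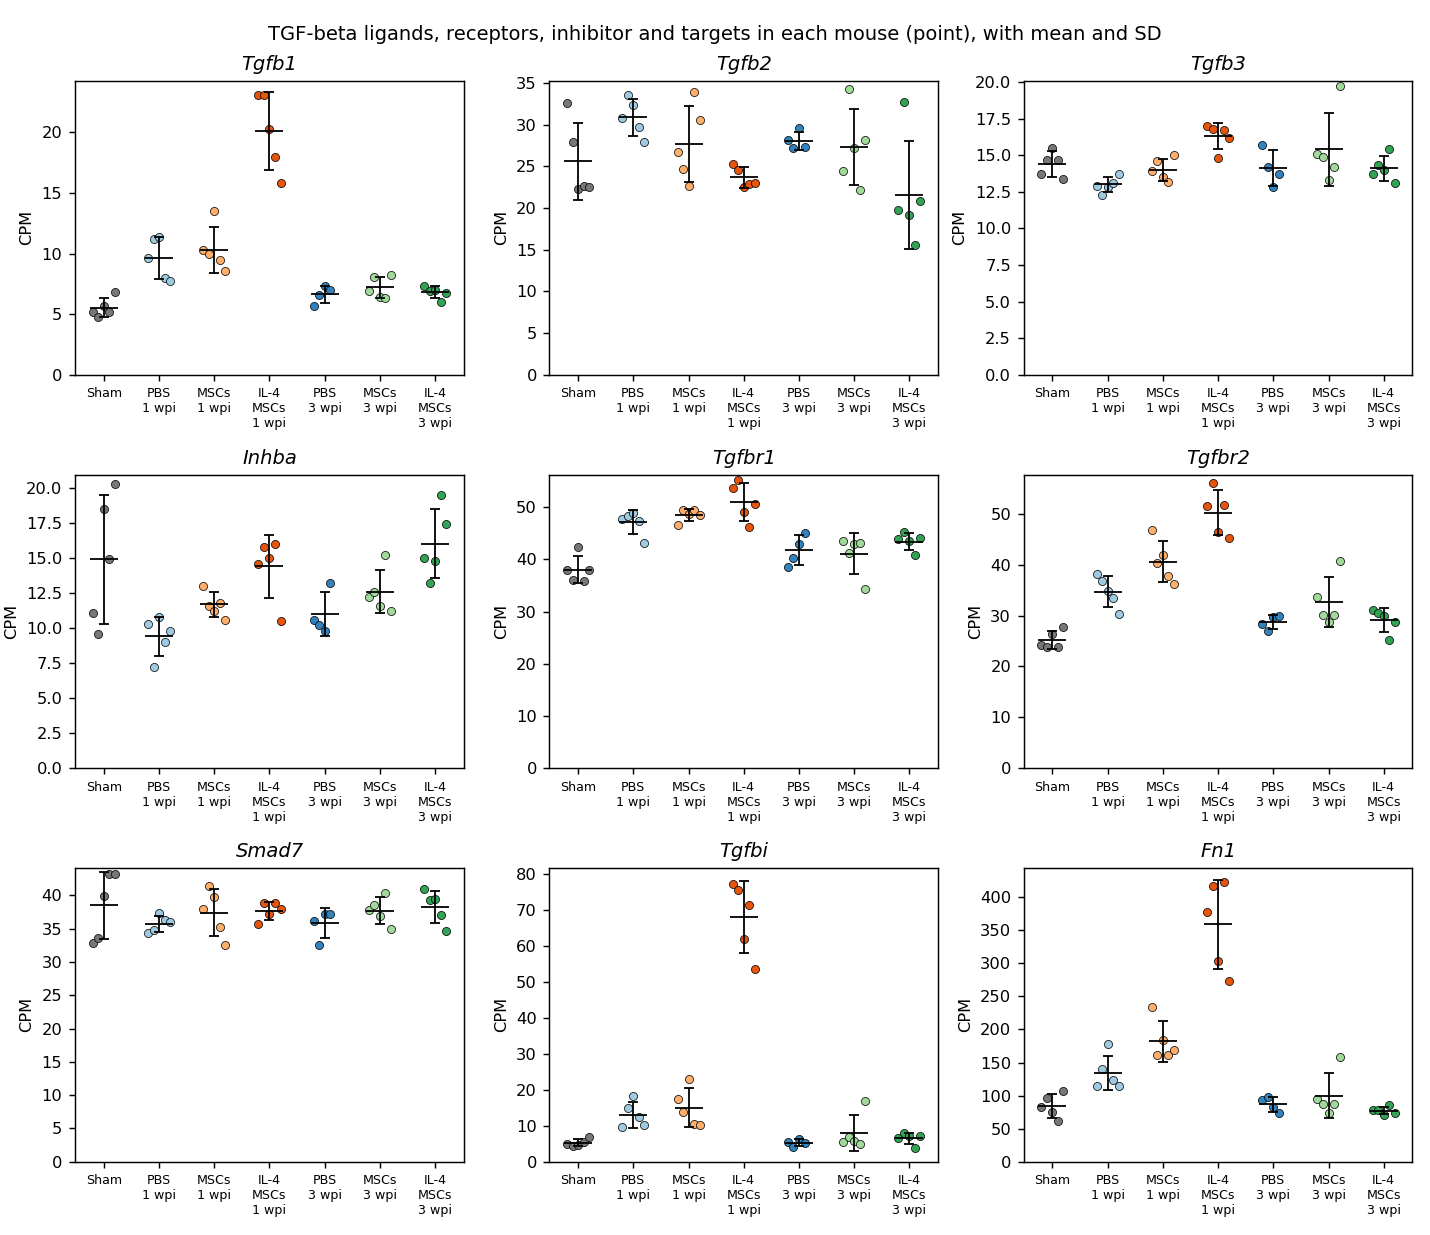
CPM of the 9 genes (y axes, linear from 0) in each mouse (points) of the 7 groups (x axes), with bars for the mean and SD. Tgfb1, Tgfbr2, Tgfbi and Fn1 are highest in IL-4 MSC mice at 1 wpi, with group means of 20.1, 50.2, 67.9 and 359 CPM, whereas the Smad7 means lie between 35.7 and 38.5 CPM.

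The first comparison asked how injury with each treatment differed from sham mice at 1 wpi. In PBS mice 5 of the 9 genes rose (Tgfb1, Tgfbr1, Tgfbr2, Tgfbi, Fn1) and 1 fell (Inhba). The background was 8.73% of all genes higher and 5.03% lower. In MSC mice the same 5 genes rose and none of the 9 fell, against 11% higher and 6.89% lower over all genes. In IL-4 MSC mice those 5 genes rose again and none fell, against 18.4% higher and 18.5% lower over all genes. The 3 comparisons share the sham mice. These had neither the impact nor the injection, so impact and needle cannot be told apart in any comparison with sham mice. The median log2 fold change of the 9 genes was 0.31 in PBS mice, 0.35 in MSC mice and 0.42 in IL-4 MSC mice, where the medians over all genes were -0.005, -0.008 and -0.018.

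Tgfb1 (ENSMUSG00000002603, GRCm38 chromosome 7, 25687002 to 25705077) encodes the TGF-beta isoform best known in immune and injury responses. Its values in the 5 sham mice were 5.21, 4.73, 5.64, 5.2 and 6.79 CPM. In PBS mice at 1 wpi they were 9.6, 11.2, 11.4, 8.01 and 7.74 CPM, and in MSC mice 10.3, 9.93, 13.5, 9.43 and 8.52 CPM. Those in IL-4 MSC mice were 23.1, 23.1, 20.3, 18 and 15.8 CPM. Every injured mouse at 1 wpi thus lay above every sham mouse, and every IL-4 MSC mouse above every PBS and MSC mouse. The log2 fold change from sham mice was 0.80 in PBS mice (SE 0.13, adjusted p = 3.68e-05), 0.91 in MSC mice (SE 0.13, adjusted p = 3.94e-06) and 1.87 in IL-4 MSC mice (SE 0.13, adjusted p = 3.54e-13).

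Tgfb2 and Tgfb3 were called in none of the 3 comparisons. Tgfb2 (ENSMUSG00000039239, chromosome 1, 186622792 to 186705989) had 25.6 ± 4.58 CPM in sham mice and 30.9 ± 2.21, 27.7 ± 4.54 and 23.7 ± 1.26 CPM at 1 wpi in PBS, MSC and IL-4 MSC mice (SD, n = 5 each). Its log2 fold changes from all 5 sham mice were 0.27, 0.11 and -0.12, at adjusted p-values of 0.208, 0.667 and 0.558. The sham mice differed by week in this gene, with 32.6 and 27.9 CPM in week 1 and 22.3, 22.6 and 22.5 CPM in week 3. At 1 wpi the PBS mice lay between 27.9 and 33.6 CPM and the IL-4 MSC mice between 22.5 and 25.3 CPM. Tgfb3 (ENSMUSG00000021253, chromosome 12, 86056745 to 86079041) had 14.4 ± 0.859 CPM in sham mice and 16.3 ± 0.894 CPM in IL-4 MSC mice, a log2 fold change of 0.18 (SE 0.07) that did not pass the test (adjusted p = 0.0541), and that passed it with DESeq2 (adjusted p = 0.0398), with RLE factors (0.0426) and with the 2 groups alone (0.00987).

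Inhba (ENSMUSG00000041324, chromosome 13, 16011851 to 16031621) encodes the subunit that pairs to form activin A, a ligand of the same superfamily that neurons express with activity. It was the single member lower than Sham. Its values in sham mice were 11.1 and 9.6 CPM in the week 1 mice and 18.5, 14.9 and 20.3 CPM in the week 3 mice, which do not overlap. In PBS mice at 1 wpi they were 10.3, 7.19, 10.8, 8.98 and 9.76 CPM. The log2 fold change was -0.66 (SE 0.16, adjusted p = 0.00334), and it was -0.15 against the week 1 sham mice alone (adjusted p = 0.593). The summed striatum markers were 463 and 446 CPM in the week 1 sham mice, between 1107 and 1339 CPM in the week 3 sham mice and between 544 and 698 CPM in PBS mice at 1 wpi. With the striatum marker score in the fit, the log2 fold change was -0.51 (adjusted p = 0.00268).

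Both receptors rose in all 3 injured groups. Tgfbr2 (ENSMUSG00000032440, chromosome 9, 116084293 to 116175360), the type II receptor that binds the ligand, had 24.3, 23.9, 26.4, 23.8 and 27.7 CPM in the sham mice. It had 38.2, 36.8, 34.8, 33.4 and 30.3 CPM in PBS mice at 1 wpi and 46.8, 40.3, 41.9, 37.7 and 36.3 CPM in MSC mice. The IL-4 MSC mice had 51.6, 56.1, 46.4, 51.7 and 45.2 CPM. No injured mouse overlapped a sham mouse, and the MSC and IL-4 MSC mice overlapped in 1 MSC mouse. The log2 fold changes from sham mice were 0.46 in PBS mice (SE 0.08, adjusted p = 1.61e-04), 0.69 in MSC mice (SE 0.08, adjusted p = 2.55e-07) and 0.99 in IL-4 MSC mice (SE 0.08, adjusted p = 1.78e-11). Tgfbr1 (ENSMUSG00000007613, chromosome 4, 47353222 to 47414931), the type I receptor kinase, had smaller log2 fold changes of 0.31, 0.35 and 0.42 (SE 0.06 each), with adjusted p-values of 1.99e-04, 2.47e-05 and 2.99e-07. Its highest sham mouse had 42.3 CPM, and the injured mice lay between 43.1 and 55.2 CPM.

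The inhibitor Smad7 (ENSMUSG00000025880) was called in none of the 15 comparisons between groups. Its group means lay between 35.7 ± 1.16 CPM in PBS mice at 1 wpi and 38.5 ± 5.07 CPM in sham mice (SD, n = 5 each). Its log2 fold change in IL-4 MSC mice at 1 wpi was -0.03 (SE 0.07, adjusted p = 0.783), with an approximate 95% interval from -0.16 to 0.10. The sham mice again differed by week, with 32.8 and 33.6 CPM in week 1 and 39.9, 43.2 and 43.2 CPM in week 3. Against the week 1 sham mice alone the log2 fold change in IL-4 MSC mice was 0.18 (adjusted p = 0.0442).

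Tgfbi and Fn1 had the 2 highest log2 fold changes of the 9 genes from sham mice in IL-4 MSC mice. Tgfbi (ENSMUSG00000035493, chromosome 13, 56609523 to 56639562), named for its induction by TGF-beta, encodes a matrix protein that macrophages also make. It had 5.01, 4.33, 4.56, 5.35 and 6.82 CPM in sham mice. In PBS mice at 1 wpi it had 9.57, 14.8, 18.3, 12.3 and 10.3 CPM, and in MSC mice 17.4, 13.8, 23.1, 10.5 and 10.1 CPM. The IL-4 MSC mice had 77.3, 75.5, 62, 71.3 and 53.5 CPM. The lowest IL-4 MSC mouse thus lay above the highest of all other mice, and every injured mouse at 1 wpi above every sham mouse. The log2 fold changes from sham mice were 1.33 in PBS mice (SE 0.27, adjusted p = 8.51e-04), 1.53 in MSC mice (SE 0.27, adjusted p = 1.07e-04) and 3.71 in IL-4 MSC mice (SE 0.28, adjusted p = 1.94e-12), the last a 13-fold difference.

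Fn1 (ENSMUSG00000026193, chromosome 1, 71585520 to 71653200) encodes fibronectin, a matrix protein of fibroblasts, vessels and macrophages. It had 82.3, 95.7, 74.6, 60.8 and 107 CPM in sham mice. In PBS mice at 1 wpi it had 115, 140, 178, 124 and 115 CPM, and in MSC mice 234, 161, 184, 162 and 169 CPM. In IL-4 MSC mice it had 377, 417, 303, 423 and 274 CPM, again above all mice of the other groups. The log2 fold changes from sham mice were 0.68 in PBS mice (SE 0.17, adjusted p = 0.00533), 1.11 in MSC mice (SE 0.17, adjusted p = 1.02e-05) and 2.09 in IL-4 MSC mice (SE 0.17, adjusted p = 1.53e-11). The call in PBS mice was lost against the week 1 sham mice alone (log2 fold change 0.58, adjusted p = 0.1).

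**Figure D2:**
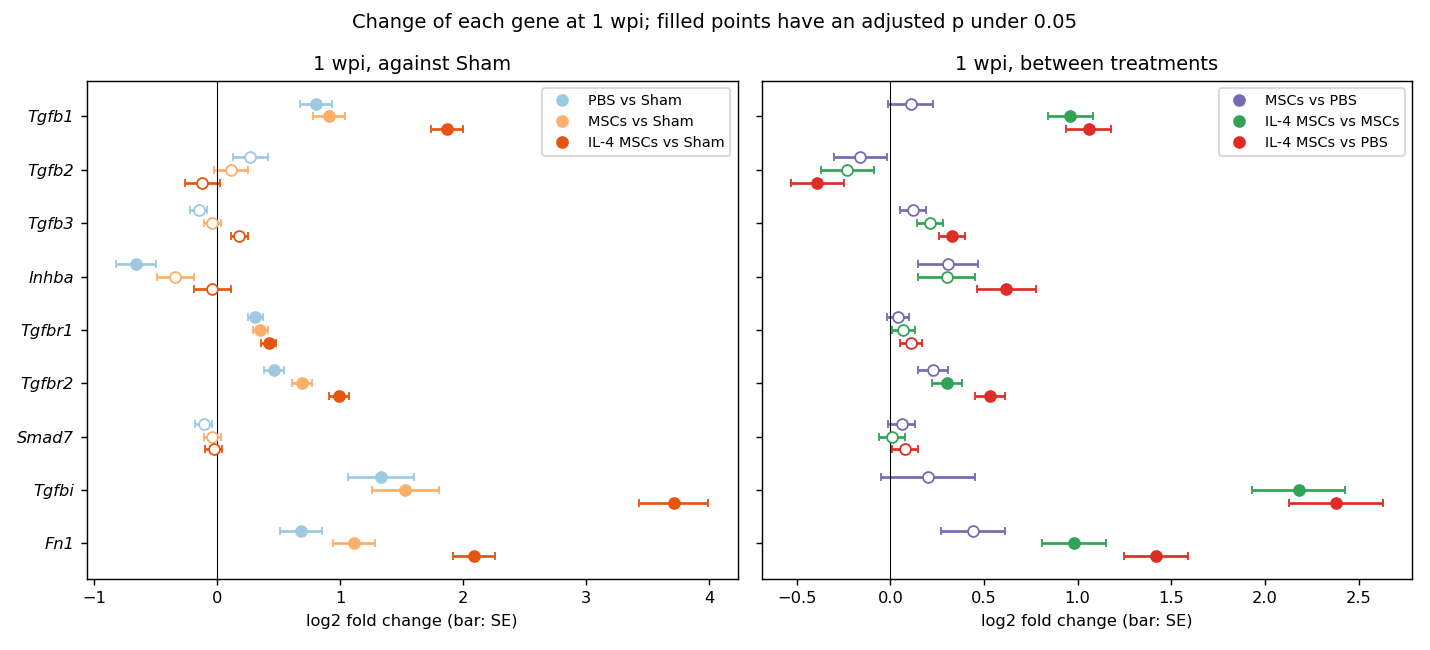
Log2 fold change (x axes) of the 9 genes (y axis) at 1 wpi against sham mice (left) and between treatments (right), with SE bars. Filled points passed an adjusted p of 0.05: against sham mice, Tgfb1, Tgfbr1, Tgfbr2, Tgfbi and Fn1 are filled in all 3 injured groups, and between MSC and PBS mice no point is filled.

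The second comparison asked whether the treatments differed at 1 wpi. Between IL-4 MSC and PBS mice 6 of the 9 genes were higher (Tgfb1, Tgfb3, Inhba, Tgfbr2, Tgfbi, Fn1) and 1 was lower (Tgfb2), against 11.2% higher and 6.16% lower over all genes. Between IL-4 MSC and MSC mice 4 were higher (Tgfb1, Tgfbr2, Tgfbi, Fn1) and none lower, against 7.66% higher and 1.03% lower. Between MSC and PBS mice none of the 9 passed the edgeR test, against 0.123% of all genes in either direction, and 2 of the 9 (Tgfbr2 and Fn1) had an unadjusted p under 0.05, as had 774 of all 17131 genes. DESeq2 also called none of the 9 in that comparison. The comparisons share mice with each other and with those against sham mice. The MSC mice received naive cells, so transfection and interleukin-4 cannot be told apart between IL-4 MSC and MSC mice.

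Tgfbi was 5.2-fold higher in IL-4 MSC mice than in PBS mice (log2 fold change 2.38, SE 0.25, adjusted p = 2.17e-08) and 4.52-fold higher than in MSC mice (2.18, SE 0.25, adjusted p = 1.41e-07). Fn1 was 2.67-fold higher than in PBS mice (1.42, SE 0.17, adjusted p = 1.47e-07) and 1.97-fold higher than in MSC mice (0.98, SE 0.17, adjusted p = 7.09e-05). Tgfb1 was 2.09-fold higher than in PBS mice (1.06, SE 0.12, adjusted p = 1.03e-07) and 1.94-fold higher than in MSC mice (0.96, SE 0.12, adjusted p = 9.67e-07). For these 3 genes the mice of the compared groups did not overlap, and the share of all genes without overlap was not counted. Tgfbr2 was 1.45-fold higher than in PBS mice (0.53, SE 0.08, adjusted p = 9.98e-06), without overlap, and 1.23-fold higher than in MSC mice (0.30, SE 0.08, adjusted p = 0.0115), with overlap. Without MSC replicate 4 the adjusted p of the latter was 0.0514.

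Tgfb3 lay between 14.8 and 17 CPM in IL-4 MSC mice and between 12.3 and 13.7 CPM in PBS mice, which gave a log2 fold change of 0.33 (edgeR, SE 0.07, adjusted p = 0.00142). Inhba had 14.6, 15.8, 15, 16 and 10.5 CPM in IL-4 MSC mice, where 1 mouse lay within the range of PBS. Its log2 fold change against PBS was 0.62 (SE 0.16, adjusted p = 0.00501). Tgfb2 lay between 22.5 and 25.3 CPM in IL-4 MSC mice and between 27.9 and 33.6 CPM in PBS mice, without overlap, and its log2 fold change was -0.39 (edgeR, SE 0.14, adjusted p = 0.0476). That call was lost on leaving out any of the 10 mice, with log2 fold changes between -0.40 and -0.34, with RLE factors (adjusted p = 0.061) and without the filter (adjusted p = 0.0536). The summed striatum markers were between 685 and 1270 CPM in IL-4 MSC mice and between 544 and 698 CPM in PBS mice, and none of the 13 markers was called in this comparison. With the striatum score in the fit, Inhba had a log2 fold change of 0.41 (adjusted p = 0.0221) and Tgfb2 one of -0.17 (adjusted p = 0.194).

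Promoter sequences of RefSeq (GRCm38.p6, 250 bases before to 50 bases after an annotated start) were found for 6 of the 9 genes. Those of Tgfb1, Tgfbr2 and Tgfbi are shown because these 3 genes were called higher in IL-4 MSC mice than in every other 1 wpi group, and that of Tgfb2 because it was the member called lower than in PBS mice. They are given 5′ to 3′ on the strand of the gene, with matches to the motifs searched in capitals.
Tgfb1 promoter, chr7:25686752-25687051, + strand: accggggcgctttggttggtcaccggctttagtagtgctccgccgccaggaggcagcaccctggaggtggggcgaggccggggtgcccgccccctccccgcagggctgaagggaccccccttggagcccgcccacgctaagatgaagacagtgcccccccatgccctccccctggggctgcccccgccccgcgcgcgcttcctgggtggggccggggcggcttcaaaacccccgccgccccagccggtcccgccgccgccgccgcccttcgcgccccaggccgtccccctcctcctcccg
Tgfbr2 promoter, chr9:116175314-116175613, - strand: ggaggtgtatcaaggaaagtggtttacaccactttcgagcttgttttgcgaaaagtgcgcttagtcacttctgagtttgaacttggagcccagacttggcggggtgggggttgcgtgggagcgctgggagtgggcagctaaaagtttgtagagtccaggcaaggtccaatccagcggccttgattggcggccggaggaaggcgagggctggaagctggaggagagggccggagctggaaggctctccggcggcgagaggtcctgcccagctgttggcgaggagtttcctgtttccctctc
Tgfbi promoter, chr13:56609336-56609635, + strand: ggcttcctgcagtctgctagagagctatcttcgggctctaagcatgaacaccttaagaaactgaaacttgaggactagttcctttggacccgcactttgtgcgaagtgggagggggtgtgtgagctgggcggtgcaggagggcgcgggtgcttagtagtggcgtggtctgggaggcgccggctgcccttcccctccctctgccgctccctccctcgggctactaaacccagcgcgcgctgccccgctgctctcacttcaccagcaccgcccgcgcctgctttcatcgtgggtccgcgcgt
Tgfb2 promoter, chr1:186705940-186706239, - strand: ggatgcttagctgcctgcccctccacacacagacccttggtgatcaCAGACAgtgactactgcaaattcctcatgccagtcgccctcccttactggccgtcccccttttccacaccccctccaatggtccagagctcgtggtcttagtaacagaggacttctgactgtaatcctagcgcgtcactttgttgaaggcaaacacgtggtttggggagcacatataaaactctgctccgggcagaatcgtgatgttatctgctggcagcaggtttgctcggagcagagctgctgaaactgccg
The motifs were searched on both strands and do not contain each other. The AP-1 site TGAGTCA was in 5.2% of the 32851 promoters of the same length, the SMAD box GTCTAGAC in 0.213%, the shorter SMAD core CAGACA in 21% and the STAT6 pattern (TTC and GAA separated by 4 bases) in 6.95%. No match to any of them was found in the windows of Tgfb1, Tgfbr2, Tgfbi and Inhba. The window of Tgfb2 held 1 match, a CAGACA beginning at position -204 from the start site. Tgfbr1 had 2 windows, of which that at the second annotated start (chr4:47385966-47386265) held 1 CAGACA, at position -203, and the other no match. Tgfb3 and Fn1, which were also called against PBS, are named only.

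Other genes of the TGF-beta superfamily were taken from lists by role, 72 genes in all, of which 29 were higher and 5 lower in IL-4 MSC mice than in sham mice at 1 wpi, beside 18.4% and 18.5% of all genes. Against PBS mice 21 were higher and 1 lower, beside 11.2% and 6.16% of all genes. Against MSC mice 11 were higher and 2 lower in IL-4 MSC mice, beside 7.66% and 1.03% of all genes. Between MSC and PBS mice 4 of the 72, all of them targets, were higher and 0 lower, beside 0.123% of all genes in either direction. The median log2 fold change of the 72 genes was 0.12 against sham mice and 0.17 against PBS, where the medians over all genes were -0.018 and -0.004. Against sham mice, 20 were higher and 1 lower in MSC mice (all genes 11% and 6.89%), and 8 higher and 2 lower in PBS mice (all genes 8.73% and 5.03%), the latter close to the background. The lists were chosen with earlier results of these data known, so their counts beside the shares of all genes are a description. Differences between the roles were not tested. The 6 SMAD transducers had median log2 fold changes from sham mice of 0.03 in PBS, 0.05 in MSC and 0.01 in IL-4 MSC mice at 1 wpi. Among 11 other ligands, Gdf10 fell in IL-4 MSC mice against sham mice (log2 fold change -0.40, SE 0.09, adjusted p = 8.84e-04) and Gdf15, a stress-induced ligand, was called higher, with counts between 1 and 3 in sham mice and between 5 and 22 in IL-4 MSC mice, and none was called against PBS.

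Among 10 other receptors and coreceptors 2 were higher and 2 lower in IL-4 MSC mice than in sham mice, which is the background share (18.4% and 18.5% of all genes). Eng, the coreceptor endoglin of endothelium, rose from 21.3 ± 2.21 to 29.1 ± 2.07 CPM (SD, n = 5 each, log2 fold change 0.45, SE 0.08, adjusted p = 2.92e-05). Acvrl1, the endothelial type I receptor ALK1, rose from 12.9 ± 1.8 to 17.5 ± 1.9 CPM (0.44, SE 0.11, adjusted p = 0.00122), and both were also higher than in PBS mice. Bmpr2 fell by 0.13 on the log2 scale (SE 0.04, adjusted p = 0.0142). The 7 endothelium markers summed to between 293 and 367 CPM in IL-4 MSC mice and between 237 and 261 CPM in sham mice, and 4 of 7 were higher. The part of these markers in the result was not tested.

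Of 11 genes of the latent complex and its activation, 9 were higher and 1 lower in IL-4 MSC mice than in sham mice, 6 were higher in MSC mice and 2 in PBS mice, where 18.4%, 11% and 8.73% of all genes were higher. Ltbp2, a latent TGF-beta binding protein of the matrix, rose from 0.537 ± 0.176 to 5.02 ± 1.23 CPM (log2 fold change 3.23, SE 0.30, adjusted p = 1.75e-10) and was also higher than in PBS mice (2.46, SE 0.28, adjusted p = 6.74e-08). Nrros, which anchors latent Tgfb1 on microglia and macrophages, rose from 5.4 ± 0.209 to 13.8 ± 1.52 CPM (1.35, SE 0.12, adjusted p = 1.68e-10). Thbs1, thrombospondin, an activator of latent TGF-beta, rose from 5.02 ± 0.38 to 30 ± 13.5 CPM (2.58, SE 0.43, adjusted p = 1.15e-05) and had 19.4 ± 17.1 CPM in PBS mice. Lrrc32, the corresponding anchor on regulatory T cells and platelets, had 8.34 ± 1.1 CPM in IL-4 MSC mice and 4.52 ± 0.456 CPM in PBS mice (0.89, SE 0.13, adjusted p = 4.00e-06).

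Of 15 other inhibitors 5 were higher and 1 lower in IL-4 MSC mice than in sham mice, beside 18.4% and 18.5% of all genes. Tgif1, a nuclear corepressor of SMADs, rose from 1.27 ± 0.276 to 5.51 ± 0.987 CPM (log2 fold change 2.11, SE 0.18, adjusted p = 5.17e-11). Grem1, a secreted antagonist of bone morphogenetic proteins, rose from 4.18 ± 0.426 to 13 ± 4.24 CPM (1.64, SE 0.18, adjusted p = 4.71e-09), and Fstl3, which binds activin, from 1.04 ± 0.336 to 1.65 ± 0.463 CPM (0.65, SE 0.20, adjusted p = 0.00954). These 3 genes were also higher than in PBS mice.

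Of 19 other targets 12 were higher and 0 lower in IL-4 MSC mice than in sham mice, 11 higher and 1 lower in MSC mice, and 4 higher and 2 lower in PBS mice. Over all genes these shares were 18.4% and 18.5%, 11% and 6.89%, and 8.73% and 5.03%. Between MSC and PBS mice 4 of the 19 were higher and 0 lower, beside 0.123% of all genes in either direction. Between IL-4 MSC and MSC mice 4 were higher and 0 lower, beside 7.66% and 1.03%. Lox, which crosslinks collagen, rose from 1.16 ± 0.182 to 26.7 ± 7.32 CPM (log2 fold change 4.52, SE 0.31, adjusted p = 4.02e-13) and had 7.38 ± 2.2 CPM in MSC mice and 2.82 ± 1.99 CPM in PBS mice. Postn, the matrix protein periostin, had 11.2 ± 2.92 CPM in IL-4 MSC mice and 2.01 ± 0.434 CPM in PBS mice (2.49, SE 0.22, adjusted p = 4.32e-10). Col3a1, a fibrillar collagen that is also in the list of fibroblast and MSC markers, had 97.6 ± 20.5 CPM in IL-4 MSC mice and 98.9 ± 57.8 CPM in MSC mice, against 20.3 ± 10.1 CPM in PBS mice. The 10 fibroblast and MSC markers, 4 of which are also pathway genes here, summed to between 593 and 728 CPM in IL-4 MSC mice, 461 and 911 CPM in MSC mice and 338 and 451 CPM in PBS mice.

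**Figure D3:**
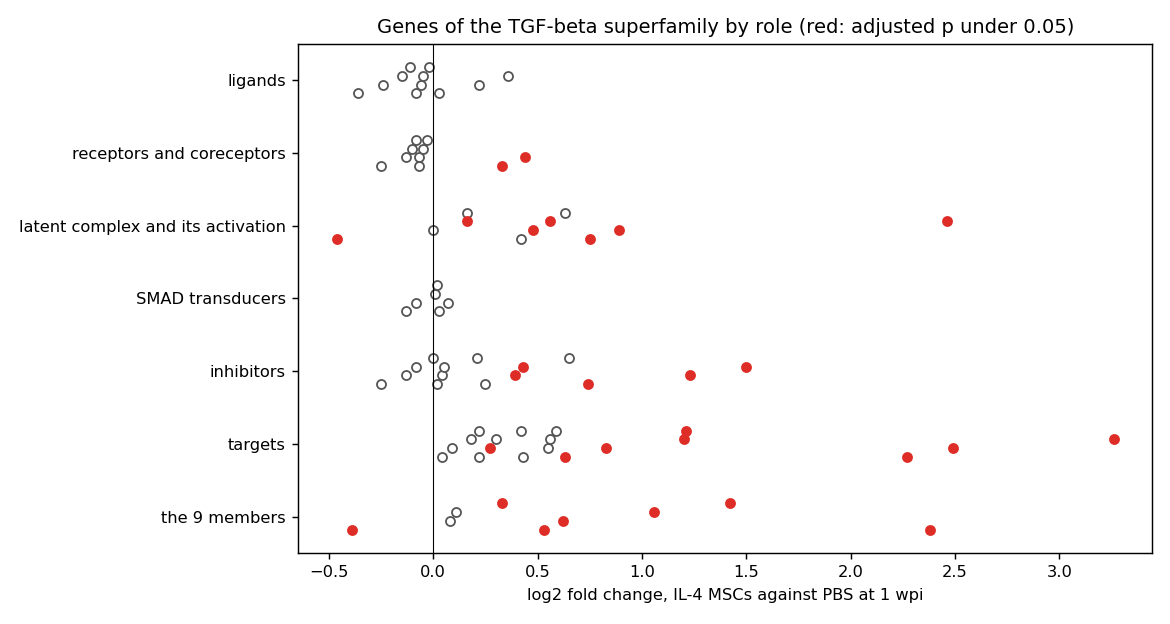
Log2 fold change between IL-4 MSC and PBS mice at 1 wpi (x axis) of 72 other genes of the superfamily and of the 9 members, in rows by role, with red points where the adjusted p was under 0.05. No ligand and no SMAD transducer of the lists is red, 8 of 19 targets are, all higher, and 7 of the 9 members, 6 higher and 1 lower. Over all genes 11.2% were higher and 6.16% lower.

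Most markers of myeloid cells moved with the same genes. The 12 macrophage and microglia markers summed to between 243 and 346 CPM in sham mice, 443 and 546 CPM in PBS mice, 478 and 579 CPM in MSC mice and 605 and 757 CPM in IL-4 MSC mice at 1 wpi. Of these 12 markers, 11 were higher in IL-4 MSC mice than in sham mice and 8 higher than in PBS mice, beside 18.4% and 11.2% of all genes. The rise over PBS mice was not shared by every marker of the list. Means in PBS and IL-4 MSC mice were 70.3 and 62.5 CPM for Cx3cr1 and 35.3 and 32.3 CPM for P2ry12. They were 24.8 and 25.1 CPM for Tmem119 and 58 and 58.2 CPM for Itgam, but 16.8 and 42.6 CPM for Cd68. The 9 blood-derived myeloid markers summed to between 4.05 and 5.77 CPM in sham mice and between 251 and 397 CPM in IL-4 MSC mice. All 9 were higher than in sham mice, PBS and MSCs, beside 18.4%, 11.2% and 7.66% of all genes. Arg1 and Chil3, which macrophages also raise in response to interleukin-4, made up most of the sum in IL-4 MSC mice with means of 146 and 144 CPM. Ccr2, a receptor of monocytes, had means of 0.996 CPM in sham mice, 2.59 CPM in PBS mice, 3.27 CPM in MSC mice and 12.2 CPM in IL-4 MSC mice. One of the 9 markers was at or under 3 counts in all sham mice. Most astrocyte markers also rose against sham mice: 5 of 7 were higher in each of the PBS, MSC and IL-4 MSC groups at 1 wpi, beside 8.73%, 11% and 18.4% of all genes. In PBS and MSC mice 0 of the 7 were lower and in IL-4 MSC mice 1 was lower, beside 5.03%, 6.89% and 18.5%. Gfap, the filament protein of reactive astrocytes, had means of 182 CPM in sham mice and 945, 924 and 1134 CPM in these groups. The 7 markers summed to between 5116 and 5694 CPM in sham mice, 6218 and 6655 CPM in PBS mice, 5959 and 7075 CPM in MSC mice and 5722 and 6481 CPM in IL-4 MSC mice, with Slc1a2 the most abundant, at means of 3794, 3806, 3831 and 3209 CPM. Between IL-4 MSC and PBS mice 0 of the 7 were higher and 1 was lower, beside 11.2% and 6.16% of all genes. In that comparison 7 of 10 fibroblast and MSC markers and 6 of 7 endothelium markers were also higher, and 0 of either list lower. Of 6 pericyte markers 1 was higher and 2 were lower there, and of 6 neuron markers 0 were higher and 2 lower. Against sham mice, 5 of the 6 neuron markers were lower in IL-4 MSC mice and 0 higher, beside 18.5% and 18.4% of all genes. The part of these cells in the levels of the 9 genes was not tested.

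**Figure D4:**
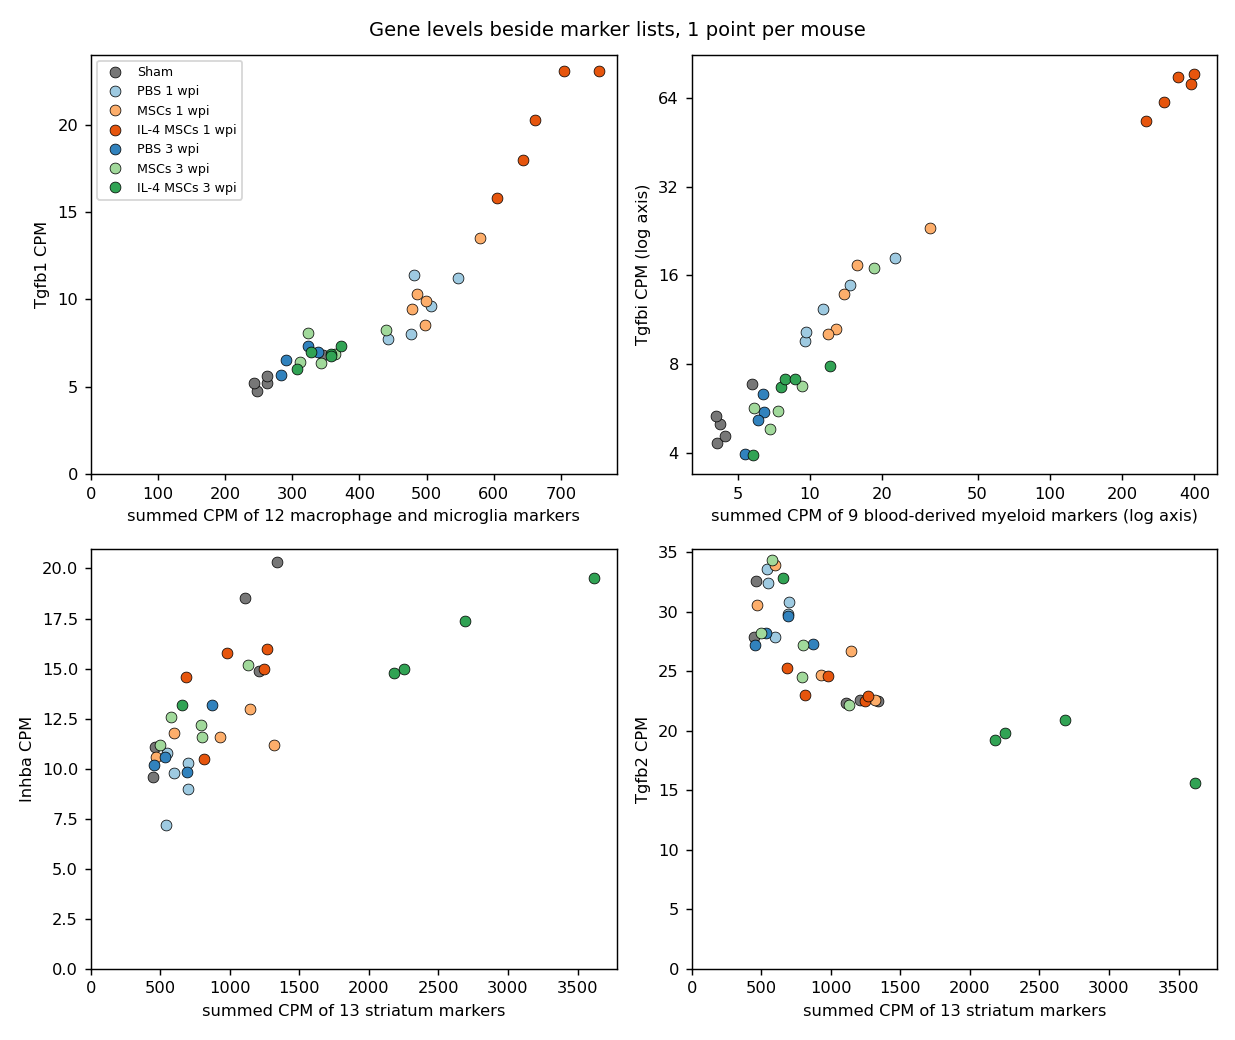
CPM of a gene (y axes) against the summed CPM of a marker list (x axes) in each of 34 mice, with colours for the 7 groups and log axes in the upper right panel. The IL-4 MSC mice at 1 wpi hold the highest values of Tgfb1 and Tgfbi and of both myeloid lists, and in the lower panels 4 of the 5 IL-4 MSC mice at 3 wpi, with 2179 CPM of striatum markers or more, hold the 4 lowest values of Tgfb2.

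The genes whose log2 CPM followed the members most closely over the 34 libraries are given as a description, since the libraries share groups. For Tgfb1 they were Tcirg1, Msn and Ppp1r18, with Pearson's r between 0.970 and 0.974, and for Tgfbi they were Ctsc, Apobr and Msn, with r between 0.979 and 0.985. Fn1 was closest to Emilin1, Emp3 and Piezo1 (0.956 to 0.963), Tgfbr2 to Myof, Ptpn6 and Emilin1 (0.952 to 0.957) and Tgfbr1 to Gpam, Cd9 and Axl (0.895 to 0.934). Inhba was closest to Rps6ka3, Lrrk2 and Ankk1 (0.809 to 0.911) and Tgfb2 to Rnf182, Npy2r and Arhgef28 (0.911 to 0.927). Smad7 (Jup, Gm45623 and Cntn2, 0.772 to 0.806) and Tgfb3 (Hnrnpm, Sept1 and Rmnd1, 0.690 to 0.763) had the lowest values of r. Among the members themselves, r was 0.96 between Tgfb1 and Tgfbi, 0.92 between Tgfb1 and Fn1, 0.94 between Tgfbi and Fn1 and -0.71 between Inhba and Tgfb2.

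The third comparison asked what remained at 3 wpi. In PBS mice edgeR called none of the 9 genes against sham mice, against 0.0292% of all genes in either direction, and 3 of the 9 (Inhba, Tgfbr1, Tgfbr2) had an unadjusted p under 0.05, as had 914 of all 17131 genes. DESeq2 called none of the 9 there. Against the week 3 sham mice alone, edgeR called Inhba lower in PBS mice (log2 fold change -0.72, adjusted p = 0.0233). Against all sham mice its log2 fold change was -0.44 (adjusted p = 0.78). In MSC mice 1 gene, Tgfbr2, was higher and none lower, against 1.11% higher and 0.035% lower over all genes. In IL-4 MSC mice 1 gene, Tgfbr1, was higher and none lower, against 2.76% higher and 1.52% lower. Between treatments none of the 9 was called, against 2.94% for IL-4 MSCs and PBS, 3.47% for IL-4 MSCs and MSCs and 0.0817% for MSCs and PBS. At an unadjusted p under 0.05 there were 2, 3 and 1 of the 9, beside 2895, 3074 and 981 of all 17131 genes, and DESeq2 called 1 gene, Inhba, between IL-4 MSC and PBS mice (log2 fold change 0.55, adjusted p = 0.0279) and none in the other 2.

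Tgfbr2 had 33.7, 30.1, 28.7, 30.1 and 40.7 CPM in MSC mice at 3 wpi, above all sham mice, and its log2 fold change was 0.37 (edgeR, SE 0.08, adjusted p = 0.014). The mouse with 40.7 CPM, replicate 4, also had the highest Tgfbi (16.9 CPM, others between 4.8 and 6.73), Fn1 (159 CPM, others between 73.6 and 94.1), Tgfb3 (19.7 CPM) and Tgfb1 (8.25 CPM) of its group and the lowest Tgfbr1 (34.4 CPM). Its macrophage and microglia markers summed to 440 CPM and its blood-derived myeloid markers to 18.5 CPM, where the other 4 mice lay at no more than 364 and 9.28 CPM. Without it the log2 fold change of Tgfbr2 was 0.28 (adjusted p = 0.126), and without sham replicate 0, 1 or 3 the adjusted p was 0.0629, 0.0569 or 0.0637. Tgfbr1 in IL-4 MSC mice at 3 wpi, with 43.4 ± 1.64 CPM against 38 ± 2.6 CPM in sham mice, differed by 0.19 on the log2 scale (SE 0.06, adjusted p = 0.0459). The call was lost on leaving out any mouse of the 2 groups but sham replicate 2, with adjusted p-values of up to 0.14, and also with the striatum score in the fit (0.17, adjusted p = 0.293).

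The levels of Inhba and Tgfb2 in IL-4 MSC mice at 3 wpi went with striatum markers. Inhba had 15, 13.2, 14.8, 19.5 and 17.4 CPM and Tgfb2 had 19.8, 32.8, 19.2, 15.6 and 20.9 CPM, in mice whose 13 striatum markers summed to 2252, 654, 2179, 3621 and 2687 CPM. The mouse with the fewest striatum markers, replicate 1, was thus lowest in Inhba and highest in Tgfb2. Against PBS the log2 fold change of Inhba was 0.55 (SE 0.16, adjusted p = 0.0609) and that of Tgfb2 -0.38 (SE 0.15, adjusted p = 0.156). Without replicate 1 they were 0.60 (adjusted p = 0.0217) and -0.58 (adjusted p = 0.00216), and with the striatum score in the fit 0.09 (adjusted p = 0.978) and 0.07 (adjusted p = 0.974). The 6 hippocampus markers moved the other way, with a median log2 fold change of -0.63 against PBS mice at 3 wpi, where 0 were called. Against sham mice 2 of these 6 were lower and 0 higher, beside 1.52% and 2.76% of all genes. The part of either region in the levels of Inhba and Tgfb2 was not tested.

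The fourth comparison asked how each treatment changed from 1 to 3 wpi. In PBS mice 3 of the 9 genes fell (Tgfb1, Tgfbi, Fn1) and none rose, against 4.9% lower and 0.613% higher over all genes. In MSC mice 5 fell (those 3, Tgfbr1 and Tgfbr2) and none rose, against 4.93% lower and 1.22% higher. In IL-4 MSC mice 6 fell (those 5 and Tgfb3) and none rose, against 16.6% lower and 16.4% higher. Tgfbi fell by 3.38 on the log2 scale in IL-4 MSC mice (SE 0.27, adjusted p = 2.03e-11), from 67.9 ± 9.99 to 6.55 ± 1.53 CPM. Fn1 fell by 2.22 (SE 0.17, adjusted p = 1.25e-11), from 359 ± 67.1 to 77 ± 5.47 CPM. Tgfb1 fell by 1.56 (SE 0.13, adjusted p = 2.50e-11), from 20.1 ± 3.21 to 6.79 ± 0.493 CPM, and Tgfbr2 by 0.79 (SE 0.08, adjusted p = 3.52e-09), from 50.2 ± 4.42 to 29.1 ± 2.31 CPM (SD, n = 5 each). For these 4 genes, and also for Tgfbr1, the mice of 1 and 3 wpi did not overlap. The share of all genes without overlap was not counted. Tgfb3 fell by 0.21 (edgeR, SE 0.07, adjusted p = 0.0276), with overlap. Its call was lost without IL-4 MSC replicate 0 or 4 of 3 wpi (adjusted p = 0.0555 and 0.0778). With the striatum score in the fit the adjusted p was 0.131.

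The declines in PBS and MSC mice are given for Tgfb1 and Tgfbi, and Tgfbr1 fell by 0.24 in MSC mice and by 0.23 in IL-4 MSC mice (edgeR, adjusted p = 0.00633 and 0.0016). Tgfb1 fell by 0.53 in PBS mice (SE 0.14, adjusted p = 0.0143) and by 0.52 in MSC mice (SE 0.13, adjusted p = 0.0091), and Tgfbi by 1.31 (SE 0.29, adjusted p = 0.00434) and 0.91 (SE 0.26, adjusted p = 0.0308). The PBS calls of Tgfb1 and Fn1 were both lost on leaving out PBS replicate 1 or 2 of 1 wpi or replicate 0 of 3 wpi, where 1 of the 9 genes remained called. The call of Fn1 was also lost without replicate 2 or 3 of 3 wpi (adjusted p = 0.0813 and 0.0964). Without replicate 4 of 1 wpi, 5 were called. The decline of Tgfbi in MSC mice was -1.41 (adjusted p = 7.38e-05) without replicate 4 of 3 wpi, and its adjusted p was up to 0.157 on leaving out another mouse. In MSC mice 3 of the 9 genes were called without replicate 0 or 2 of 1 wpi or replicate 2 of 3 wpi.

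Whether the change from 1 to 3 wpi differed between treatments was tested directly. Against the change in PBS mice, the change in IL-4 MSC mice was more negative in 4 of the 9 genes (Tgfb1, Tgfbr2, Tgfbi, Fn1) and more positive in none, against 3.93% and 0.788% of all genes. Against the change in MSC mice it was more negative in 5 (those 4 and Tgfb3) and more positive in none, against 5.96% and 1.9%. The difference was -2.07 for Tgfbi (SE 0.39, adjusted p = 0.00103) and -1.59 for Fn1 (SE 0.24, adjusted p = 9.57e-05) against PBS. For Tgfb1 it was -1.03 (SE 0.18, adjusted p = 5.78e-04) and for Tgfbr2 -0.52 (SE 0.12, adjusted p = 0.00788). Between MSC and PBS mice none of the 9 genes was called by edgeR, none at an unadjusted p under 0.05 and none by DESeq2, against 0% of all genes, 572 of which had an unadjusted p under 0.05.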

How the data were processed

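RNA-seq was done on 34 libraries in 7 groups, 1 library per mouse, taken from GEO's labels; 1 library of PBS at 3 wpi that the authors excluded was not analysed here. Per the submitters' processing notes and the study's methods, reads were trimmed with cutadapt 2.4 and assigned to protein-coding GENCODE transcripts with kallisto 0.46. The authors deposited estimated counts (expected counts) per gene without normalization, and TPM, which are scaled for transcript length and library. The 63 columns of the authors' own comparisons by sleuth 0.30 were not used. Reads shared by similar transcripts are divided by estimation, and antisense reads cannot be told apart without strand.

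Counts were rounded, filtered with filterByExpr, scaled with TMM factors and tested with edgeR 4.0.16 in R 4.3.3 (glmQLFTest, two-sided, 17131 of 21203 genes, Benjamini-Hochberg adjustment within each of 18 comparisons, threshold 0.05). SEs are approximate, the log2 fold change divided by the root of the F statistic, and 95% intervals were taken from them. DESeq2 1.42.0, RLE factors, no filter, unrounded counts, the 2 groups alone, an added log2 fold change of 1, a replicate block, a striatum covariate, sham mice of the same week and leaving out each mouse were alternatives. The number before the dash in the sample labels is constant within a treated group, so anything it stands for cannot be told apart from the group. Positions are from GENCODE on GRCm38 and promoters from RefSeq. The members and lists were chosen with earlier results of these data known. All 9 members are named in every comparison, and of the other pathway genes up to 3 per role with the largest log2 fold change among those called between IL-4 MSCs and Sham or PBS at 1 wpi. One gene that this rule names is not reported here. The 3 genes most like each member had the highest Pearson's r. Limits of 3 counts cover counting error only.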

Additional observations from a re-analysis of the deposited data

Results flagged for a closer look

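In 5 of 63 combinations of gene and group, 1 mouse lay farther from the others than Dixon's 95% limit allows, where chance gives about 1 in 20. Replicate 4 of MSCs at 3 wpi accounted for 3 of these, with 16.9 CPM of Tgfbi and 159 CPM of Fn1 above the other mice of its group and 34.4 CPM of Tgfbr1 below them. The others were replicate 4 of IL-4 MSCs at 1 wpi, with 10.5 CPM of Inhba, and replicate 4 of PBS at 1 wpi, with 43.1 CPM of Tgfbr1, both the lowest of their groups.

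The change from 1 to 3 wpi differed between treatments, by a test of the difference itself in edgeR, in 9 cases. Against PBS, the change in IL-4 MSCs differed by -1.03 on the log2 scale for Tgfb1, -0.52 for Tgfbr2, -2.07 for Tgfbi and -1.59 for Fn1. Against MSCs it differed by -1.04 for Tgfb1 (adjusted p = 2.10e-04), -0.47 for Tgfbr2 (adjusted p = 0.00833), -2.47 for Tgfbi (adjusted p = 4.01e-05), -1.35 for Fn1 (adjusted p = 2.62e-04) and -0.35 for Tgfb3 (adjusted p = 0.0341). Without replicate 4 of MSCs at 3 wpi the last was -0.26 (adjusted p = 0.0623), and leaving out other mice gave adjusted p-values of up to 0.0705.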

How the results depend on the processing

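Of 3159 log2 fold changes recomputed under alternatives, 97 lost their call, 31 gained one in the same direction and 2 gained one with the opposite sign. Changes of sign among values that were called in neither setting are not counted here. Against sham mice of the same week, IL-4 MSCs at 1 wpi had 0.48 for Inhba and 0.18 for Smad7, both called, where the values against all sham mice were -0.04 and -0.03. An added log2 fold change of 1 left 1 of the 9 genes called against sham mice at 1 wpi in PBS mice, 2 in MSC mice and 3 in IL-4 MSC mice, 0 in MSC mice and 0 in IL-4 MSC mice at 3 wpi, 3 between IL-4 MSC and PBS mice and 1 between IL-4 MSC and MSC mice at 1 wpi, 1, 0 and 3 between 1 and 3 wpi in PBS mice, MSCs and IL-4 MSCs, and 3 in the difference of change from MSCs; this follows from the stricter rule. With only the 2 groups compared, 0 were called against sham mice in MSC mice and 0 in IL-4 MSC mice at 3 wpi, and 3 between 1 and 3 wpi in MSC mice. With sham mice of the same week, 1 (Inhba) was called in PBS mice and 0 in MSC mice and IL-4 MSCs at 3 wpi. The 1 call in IL-4 MSC mice at 3 wpi went to 0 without the filter and with the striatum covariate, and DESeq2 gave 1 call between IL-4 MSC and PBS mice at 3 wpi. The cause was not tested.

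Leaving out 1 mouse, the members called ranged from 0 to 1 against sham mice at 3 wpi in MSC mice and in IL-4 MSC mice, from 0 to 2 between IL-4 MSC and PBS mice at 3 wpi (2 without IL-4 MSC replicate 1, 1 without PBS replicate 3), from 0 to 1 between IL-4 MSC and MSC mice at 3 wpi (1 without IL-4 MSC replicate 1), from 1 to 5 between 1 and 3 wpi in PBS mice and from 3 to 5 in MSC mice. Tgfb1, Tgfbi and Fn1 kept their calls between IL-4 MSCs and Sham at 1 wpi, between IL-4 MSC and PBS mice at 1 wpi and between 1 and 3 wpi in IL-4 MSC mice under every alternative run. With the replicate number as a block, 7 of the 9 genes were called between IL-4 MSC and PBS mice at 1 wpi, and no call changed in any comparison. The numbers did not pair the mice: the correlation of deviations had a median of 0.0227 over 99 same-numbered pairs, ranging from -0.299 to 0.411, and 7 of 34 libraries correlated best with their own number.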
